A study of Homo sapiens with 4 samples.

Results

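The inflammatory chemokines and cytokines studied here were 10 genes, chosen by name from the 60617 genes that each deposited file lists: CXCL8, CXCL1, CXCL2, CXCL3, CCL2, CCL20, IL6, IL1A, IL1B and LIF. Their transcripts were counted in spheres of the established human glioblastoma line U87MG, kept for 14 days in DMEM/F12 with N2, 2% B27 and the growth factors bFGF and EGF, both at 20 ng/ml. Spheres given abemaciclib, a drug that inhibits the cell-cycle kinases CDK4 and CDK6 (2 poly-A libraries), were compared with spheres labelled untreated (2 poly-A libraries). Neither the dose of abemaciclib nor any vehicle given to the controls is stated in the labels. The labels also do not say whether the libraries of a group came from separate cultures of this single line, so the p-values below cover the spread between libraries alone, and that spread may be technical. The libraries held 23684260 and 33226884 expected counts (abemaciclib) and 27485206 and 33418075 expected counts (untreated).

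Chemokines are small secreted proteins that draw leukocytes along a gradient. CXCL8, CXCL1, CXCL2 and CXCL3 bind CXCR2 (CXCL8 also CXCR1) and attract neutrophils, CCL2 attracts monocytes through CCR2, and CCL20 attracts dendritic cells and some T cells through CCR6. IL6 and LIF signal through receptors that share the chain gp130, encoded by IL6ST, and activate STAT3, whereas IL1A and IL1B bind the receptor IL1R1 and activate the transcription factor NF-kB, which in turn can raise transcription of most of these genes. In glioblastoma these factors are known to be secreted by tumour cells and by recruited myeloid cells, and many of the transcripts are short-lived.

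The promoters and 3' untranslated regions are shown first, because several of the 10 genes share sequence features there. The RefSeq promoter table (GRCh38.p14) held 8 of the 10 genes, and those of CCL2 and LIF were not used here. Each stretch printed runs from 150 bases before the annotated start to 10 bases after it, on the gene's own strand, and capitals mark matches to the motifs GGNNTTTCC (of the NF-kB type) and TGANTCA (of the AP-1 type), searched on both strands. The stretches lie at chr4:73740419-73740578 (CXCL8, plus strand), chr4:73869243-73869402 (CXCL1, plus), chr4:74099186-74099345 (CXCL2, minus), chr4:74038680-74038839 (CXCL3, minus), chr2:227813692-227813851 (CCL20, plus), chr7:22727050-22727209 (IL6, plus) and chr2:112836770-112836929 (IL1B, minus).
CXCL8: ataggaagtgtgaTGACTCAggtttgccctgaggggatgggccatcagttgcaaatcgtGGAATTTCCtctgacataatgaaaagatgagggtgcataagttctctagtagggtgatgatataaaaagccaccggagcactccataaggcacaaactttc
CXCL1: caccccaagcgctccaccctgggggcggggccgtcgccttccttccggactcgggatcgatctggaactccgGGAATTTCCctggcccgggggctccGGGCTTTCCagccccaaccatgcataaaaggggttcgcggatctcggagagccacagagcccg
CXCL2: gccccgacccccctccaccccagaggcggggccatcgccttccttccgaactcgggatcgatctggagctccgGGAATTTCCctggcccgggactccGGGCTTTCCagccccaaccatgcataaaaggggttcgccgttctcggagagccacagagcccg
CXCL3: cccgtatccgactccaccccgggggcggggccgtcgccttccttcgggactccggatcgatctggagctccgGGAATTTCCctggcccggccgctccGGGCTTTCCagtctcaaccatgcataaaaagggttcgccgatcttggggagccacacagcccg
CCL20: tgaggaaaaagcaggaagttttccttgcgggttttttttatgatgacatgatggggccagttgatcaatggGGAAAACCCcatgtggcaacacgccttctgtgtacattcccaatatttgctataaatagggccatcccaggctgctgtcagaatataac
IL6: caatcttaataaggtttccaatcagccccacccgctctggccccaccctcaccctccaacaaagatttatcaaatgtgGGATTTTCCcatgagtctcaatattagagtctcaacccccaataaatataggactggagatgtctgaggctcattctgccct
IL1B: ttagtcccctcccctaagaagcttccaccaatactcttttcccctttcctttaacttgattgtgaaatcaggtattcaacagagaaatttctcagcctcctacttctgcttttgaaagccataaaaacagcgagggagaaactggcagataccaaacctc

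The motif letters were chosen after these promoters had been read, so the shares given here describe the sequences and are no test. In the full windows of 300 bases (250 before the start, 50 after), GGNNTTTCC was found in 6 of the 8 genes (CXCL8, CXCL1, CXCL2, CXCL3, CCL20 and IL6) and in 6.26% of the 35116 promoter windows of the table. The match nearest to the upstream end stood between 72 (IL6) and 91 (CXCL8) bases before the start in these 6 genes, on the minus strand in CCL20. In CXCL8, CXCL1, CXCL2 and CXCL3 that match reads GGAATTTCC, a form held by 0.461% of all windows, and CXCL1, CXCL2 and CXCL3 have another match 53 bases before the start. The motif did not match in the windows of IL1A and IL1B, which says only that these letters are not there. TGANTCA was found in CXCL8, 137 bases before the start, and in both annotated start windows of IL1A, against 7.71% of all windows. The IL1A windows overlap and hold the same TGANTCA matches. The letters TATAAA, not capitalised, were found in CXCL8, CCL20 and IL1A and in 11.5% of all windows. The CXCL1, CXCL2 and CXCL3 stretches are close copies, with 89.5% identity between CXCL1 and CXCL2, 88.2% between CXCL1 and CXCL3 and 86.5% between CXCL2 and CXCL3, and a match is a description of the sequence rather than a site of binding.

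**Figure D1:**
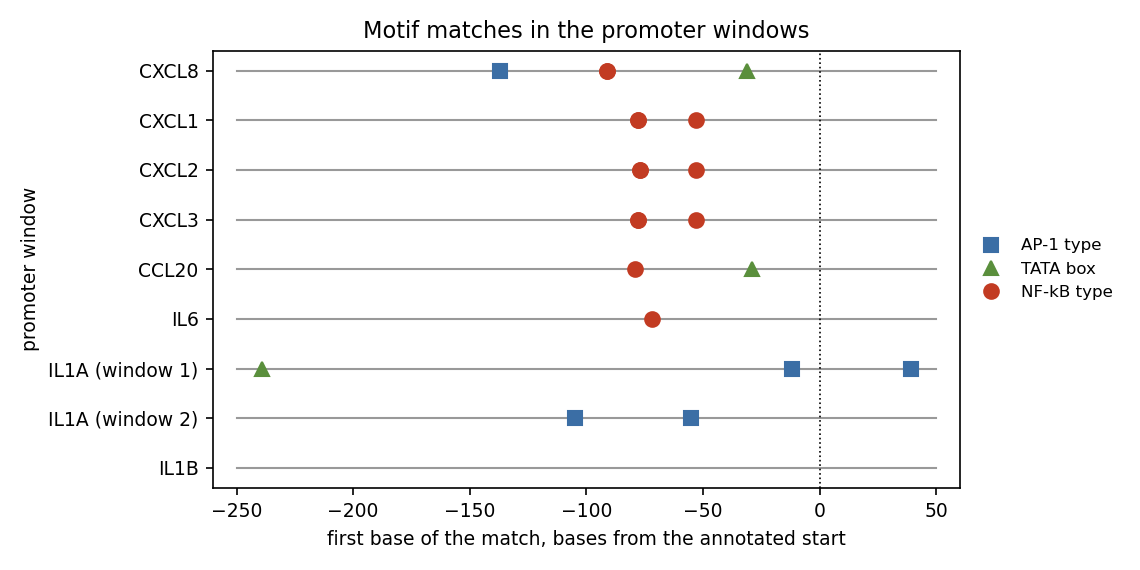
Positions of motif matches in the promoter windows of 8 genes, with distance from the annotated start in bases on the horizontal axis and 1 row per window. IL1A has 2 windows, which overlap and show the same AP-1-type matches. The NF-kB-type matches of CXCL8, CXCL1, CXCL2, CXCL3, CCL20 and IL6 include 1 in each gene that begins between 91 and 72 bases before the start, and CXCL1, CXCL2 and CXCL3 have a further one at 53 bases.

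The 3' untranslated regions of several of the transcripts hold AU-rich repeats, the kind of element that decay factors of the tristetraprolin family bind. The nonamer ATTTATTTA was searched on the transcript strand of 1 principal transcript a gene (GENCODE release 29, GRCh38). It was present in 4 of the 10 genes and in 6.97% of 13148 tested protein-coding genes, which describes the sequences and is no test. The first sites of CXCL1 and CXCL2 both begin at base 146 of the region and are near-identical, so they are not independent. The first site of each of the 4 genes is printed with 8 bases on either side and the nonamer in capitals. These sites are on chromosome 4 for CXCL8, CXCL1 and CXCL2 and on chromosome 2 for IL1B.
CXCL8: atttatgtATTTATTTAagcatcaa
CXCL1: agtcttctATTTATTTAtttattca
CXCL2: agtcttctATTTATTTAtttattta
IL1B: gcttccctATTTATTTAtttatttg

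The shorter pentamer ATTTA occurred in all 10 genes, from 1 time in CCL2 to 10 times in CXCL2, with a median of 6 times over the 10 genes and 2 times over the tested protein-coding genes. The median length of the untranslated region was 689.5 bases in the 10 genes and 1067 bases in those tested.

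After abemaciclib 8 of the 10 transcripts were lower, CCL2 was higher and IL1B did not pass the threshold. All 10 passed the low-count filter, and the test was edgeR's quasi-likelihood F test with Benjamini-Hochberg adjustment over the 17207 genes tested, called at an adjusted p under 0.05. Genes called lower were 39.3% and genes called higher 38.0% of those tested, so a call by itself is common in this comparison. All 8 lower transcripts were at least 2-fold lower, which held for 17.4% of the tested genes and for 2986 of the 6757 genes called lower. The median log2 fold change was -2.35 over the 10 genes and -0.01 over all tested genes. The abemaciclib and untreated libraries did not overlap for any of the 10, against 87.9% of all tested genes. The 10 genes were chosen with earlier results of these data known, so these contrasts describe them and are no test.

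**Figure D2:**
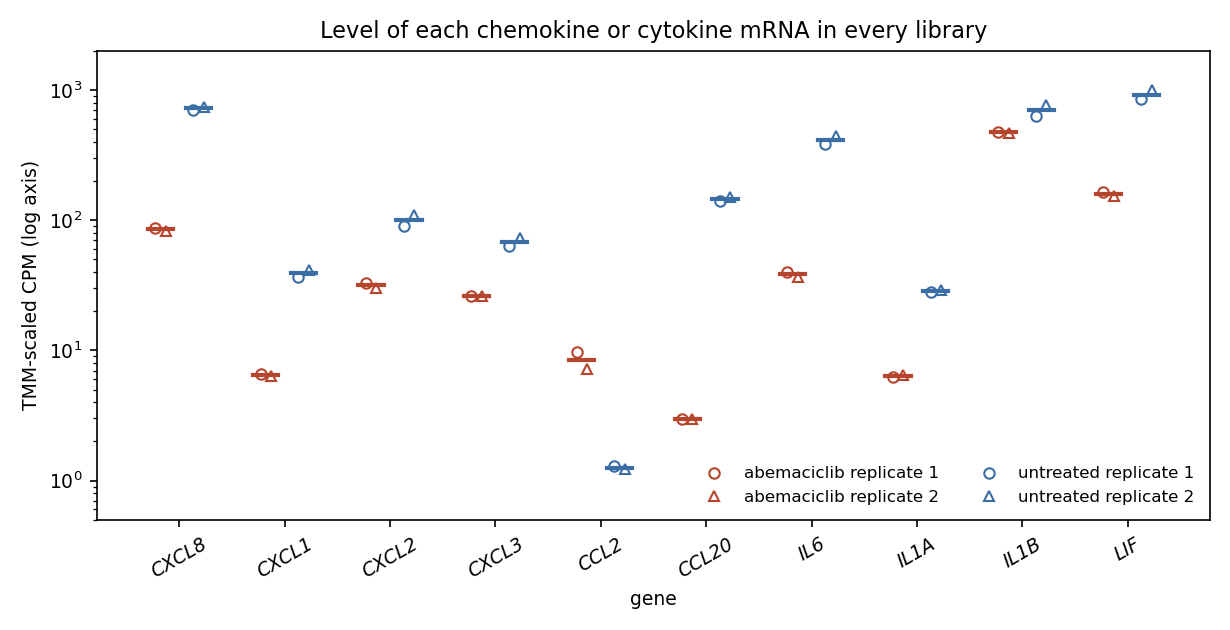
TMM-scaled CPM (log axis) of each of the 10 genes in every library, abemaciclib left of untreated, with replicates 1 and 2 as circles and triangles and the group mean as a bar. The abemaciclib libraries lie below the untreated ones for 9 genes and above them for CCL2.

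CXCL8, the main neutrophil attractant of the group (ENSG00000169429, chromosome 4, 73740506 to 73743716, plus strand), had 87.5 and 82.6 CPM in the abemaciclib libraries and 704 and 741 CPM in the untreated libraries. CPM here and below are counts scaled to a common library total after TMM, a factor for composition that lay between 0.980 and 1.02. Both abemaciclib values were far below both untreated ones. On the log2 scale CXCL8 fell by 3.09 ± 0.04 (SE; edgeR adjusted p = 4.41e-33), or 8.51-fold. Its mean was 85.1 ± 3.46 CPM with abemaciclib and 722 ± 26.6 CPM untreated (SD, n = 2 each).

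CXCL1, CXCL2 and CXCL3 are near-identical neighbours that act on the same receptor. CXCL1 (ENSG00000163739, chromosome 4, 73869393 to 73871242, plus strand) had 6.60 and 6.35 CPM with abemaciclib against 36.9 and 41.4 CPM untreated. Its log2 fold change was -2.60 ± 0.09 (edgeR adjusted p = 1.19e-22), the furthest fall of the 3. CXCL2 (ENSG00000081041, 74097035 to 74099293, minus strand) had 32.7 and 30.3 CPM with abemaciclib against 90.3 and 110.3 CPM untreated, and fell by 1.68 ± 0.16 on the log2 scale (edgeR adjusted p = 5.28e-03). This call was lost when abemaciclib replicate 2 was left out (edgeR adjusted p = 0.0674, range over 11 alternatives 6.17e-241 to 0.0674). The lowest of these came from leaving out untreated replicate 1, where the spread is that of the abemaciclib pair alone. CXCL3 (ENSG00000163734, 74036589 to 74038807, minus strand) had 26.3 and 26.2 CPM with abemaciclib against 63.4 and 73.5 CPM untreated, and fell by 1.39 ± 0.06 on the log2 scale (edgeR adjusted p = 1.70e-13). The groups did not overlap for any of the 3, and the 3 had unequal sizes of change.

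The coding sequences of CXCL1, CXCL2 and CXCL3 are 90.8% to 94.4% identical, with an unbroken shared run of up to 97 bases, so the authors' counting could have split reads among them. Expected counts were not whole in 2 libraries for CXCL1 and in 3 libraries each for CXCL2 and CXCL3, and were whole in every library for the other 7 genes. Summed to 1 feature, the 3 had 65.6 and 62.8 CPM with abemaciclib and 190.5 and 225.2 CPM untreated, which is lower by -1.70 ± 0.12 as a log2 fold change (edgeR adjusted p = 2.60e-03). CXCL8 shares 53.7% to 55.9% of its coding sequence with them and no run over 11 bases.

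The 4 CXC genes stand in 1 cluster on chromosome 4 with CXCL6, PPBP and CXCL5, which encode chemokines of the same receptor class. CXCL5 had 80.1 and 72.7 CPM with abemaciclib and 111 and 122 CPM untreated, a smaller fall by 0.62 ± 0.05 on the log2 scale (edgeR adjusted p = 4.09e-07). CXCL6 had 0 counts with abemaciclib and 1 count untreated over both libraries, and PPBP had 1 count with abemaciclib and 2 counts untreated, so neither could be compared. Log2 fold changes in the cluster therefore ran from -3.09 for CXCL8 to -0.62 for CXCL5.

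CCL20 fell further than any of the other 9 genes. The gene (ENSG00000115009, chromosome 2, 227805739 to 227817564, plus strand) encodes the CCR6 ligand and had 2.99 and 2.95 CPM with abemaciclib, from 72 and 100 counts. The untreated libraries had 139 and 152 CPM, from 3764 and 4967 counts. Its log2 fold change was -5.62 ± 0.07 (edgeR adjusted p = 2.83e-32), or 49.0-fold lower.

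CCL2, the monocyte attractant, went the other way. The gene (ENSG00000108691, chromosome 17, 34255218 to 34257203, plus strand) had 9.76 and 7.20 CPM with abemaciclib, from 235 and 244 counts, against 1.30 and 1.22 CPM untreated, from 35 and 40 counts. Its log2 fold change was 2.73 ± 0.19 (edgeR adjusted p = 5.66e-14), or 6.65-fold higher. It was the lowest of the 10 in both untreated libraries per kilobase of transcript and the seventh in both abemaciclib libraries.

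IL6, the founding cytokine of the gp130 family (ENSG00000136244, chromosome 7, 22725884 to 22732002, plus strand), had 39.7 and 36.9 CPM with abemaciclib against 387 and 443 CPM untreated. It was 10.9-fold lower and fell by 3.44 ± 0.10 on the log2 scale (edgeR adjusted p = 3.22e-05). LIF, a gp130 cytokine that keeps mouse embryonic stem cells undifferentiated (ENSG00000128342, chromosome 22, 30240447 to 30246851, minus strand), had 165 and 153 CPM with abemaciclib against 846 and 991 CPM untreated. Its log2 fold change was -2.53 ± 0.13 (edgeR adjusted p = 1.87e-03), or 5.77-fold lower. Both abemaciclib libraries lay well below both untreated ones in each gene.

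IL6 and LIF are the only 2 of the 10 that overlap other annotated genes, all on the opposite strand. STEAP1B, opposite IL6, had 388 and 526 counts with abemaciclib and 249 and 295 counts untreated, and LIF-AS1, opposite LIF, had at most 6 counts in any library. The kit keeps strand, but whether the counting used it is not stated, so reads of overlapping genes may not have been told apart.

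IL1A and IL1B lie side by side on chromosome 2 and encode the 2 agonists of the receptor IL1R1. IL1A (ENSG00000115008, 112773915 to 112784590, minus strand) had 6.27 and 6.49 CPM with abemaciclib against 28.3 and 29.3 CPM untreated. It fell by 2.17 ± 0.09 on the log2 scale (edgeR adjusted p = 3.44e-20), or 4.50-fold.

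IL1B (ENSG00000125538, 112829751 to 112836903, minus strand) had 476 and 468 CPM with abemaciclib against 634 and 767 CPM untreated. The groups did not overlap, but the untreated libraries were far apart, and the log2 fold change of -0.57 ± 0.13 had an edgeR adjusted p of 0.05003, just on the uncalled side of the threshold. The call therefore depended on the setting, with adjusted p from 2.02e-147 to 0.164 over 10 alternatives, 6 of which called it lower, and the lowest again came from leaving out untreated replicate 1. DESeq2 called it lower (-0.56 ± 0.13, adjusted p = 1.01e-04), and with a replicate block edgeR did not (adjusted p = 0.0966). Its log2 fold change ranged from -0.70 to -0.43 over these alternatives, always lower after the drug.

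**Figure D3:**
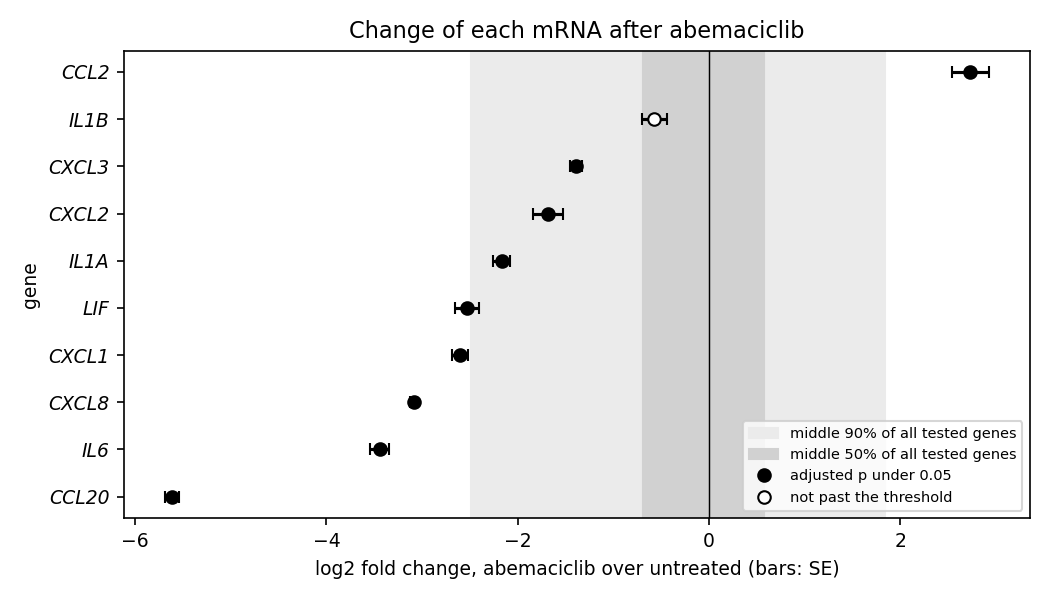
Log2 fold change of each of the 10 genes, abemaciclib over untreated, with SE bars, sorted from highest to lowest. The shaded bands give the middle of all 17207 tested genes, CCL2 lies to the right of both bands, and CXCL1, LIF, CXCL8, IL6 and CCL20 lie to the left of the wider one, which starts at -2.49.

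Because the 10 transcripts moved by unequal amounts, their order changed. Per kilobase of principal transcript, IL1B was the highest of the 10 in both abemaciclib libraries at 292 and 287 CPM per kb, with CXCL8 next at 51.3 and 48.5. In the untreated libraries CXCL8 had 413 and 435 CPM per kb and IL1B 389 and 470, so CXCL8 led in replicate 1 and IL1B in replicate 2, and their order there did not hold beyond the spread. IL1B made up 59.8% and 61.1% of the summed CPM per kb of the 10 genes with abemaciclib, against 23.9% and 25.5% untreated. CCL20 made up 0.766% and 0.786% with abemaciclib and 10.7% and 10.3% untreated. The sum itself was 488 and 469.6 CPM per kb with abemaciclib and 1624 and 1846 CPM per kb untreated.

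Ratios within a library show the same shifts between pairs of related genes, as CPM per kb. IL1B exceeded IL1A 98.8-fold and 93.8-fold with abemaciclib, against 29.2-fold and 34.1-fold untreated. LIF to IL6 stood at 1.60 in both abemaciclib libraries, against 0.840 and 0.862 untreated, so LIF was the higher of the pair with the drug and the lower without it. CXCL2 to CXCL1 stood at 4.46 and 4.30 with abemaciclib, against 2.20 and 2.40 untreated, with the doubt about shared reads.

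**Figure D4:**
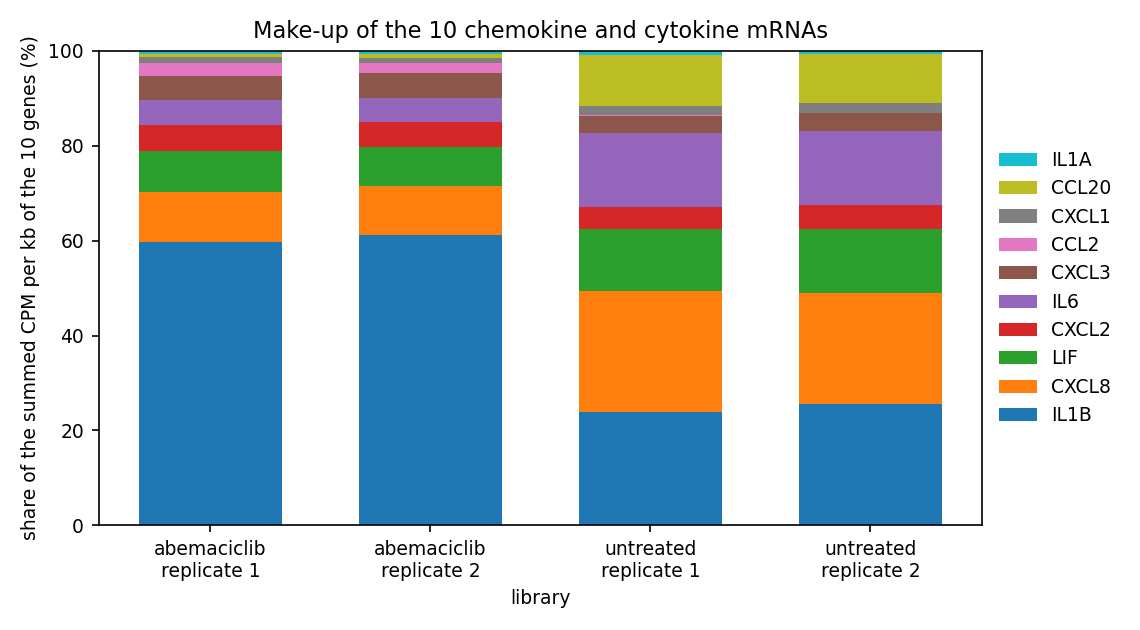
Share of each of the 10 genes in their summed CPM per kb, as stacked bars for each library. IL1B takes 59.8% and 61.1% in the abemaciclib libraries and 23.9% and 25.5% in the untreated ones, and CCL20 takes under 1% with abemaciclib and 10.3% to 10.7% untreated.

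The untreated replicates differed mostly in 1 direction in these genes. In untreated replicate 2, 9 of the 10 were higher than in untreated replicate 1, all but CCL2, by up to 1.22-fold in CXCL2, 1.21-fold in IL1B, 1.17-fold in LIF and 1.16-fold in CXCL3. Among tested genes with a mean of at least 5 CPM, 52.5% were higher in that replicate. In abemaciclib replicate 2, 1 of the 10 was higher than in abemaciclib replicate 1 (IL1A, 1.04-fold), against 50.5% of such genes. The cause of this spread was not tested.

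Since these factors are also made by immune cells, markers of other cell types were read beside them. Of 15 myeloid markers, AIF1 was at 0 in every library and 3 averaged at least 1 CPM over the 4 libraries (CD68, CSF1R and TMEM119). The myeloid list summed to 1216 to 1247 CPM with abemaciclib and 708 to 715 CPM untreated, of which CD68, a lysosomal protein that other cells also make, gave 1073 to 1100 CPM with abemaciclib and 503 to 513 CPM untreated. Of the 6 myeloid markers tested, 3 were called higher (CD68, CD163 and PTPRC) and 3 lower (CSF1R, TMEM119 and CD14). CSF1R, the receptor of CSF1, had 5.77 and 5.31 CPM with abemaciclib and 10.9 and 11.5 CPM untreated, and TMEM119, a microglial marker, 138 and 135 CPM with abemaciclib and 190 and 192 CPM untreated. P2RY12, C1QA, C1QB, C1QC and TYROBP, also on the myeloid list, had at most 3 counts in any library. PTPRC, the pan-leukocyte marker CD45, had 0.413 to 0.748 CPM with abemaciclib and 0.0917 to 0.148 CPM untreated, a call lost with DESeq2 (adjusted p = 0.0641) and without abemaciclib replicate 1 (edgeR adjusted p = 0.0567). The CD14 call was also lost with DESeq2 (adjusted p = 0.280) and without any 1 of the 4 libraries.

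The 7 lymphoid markers summed to under 0.4 CPM in each library, and none passed the filter. The 6 endothelial markers summed to 26.5 to 27.2 CPM with abemaciclib and 26.0 to 28.8 CPM untreated, but their members moved apart. PECAM1, the adhesion molecule CD31, was 8.79-fold lower, at 1.37 and 0.915 CPM with abemaciclib and 9.78 CPM in both untreated libraries, whereas KDR, a VEGF receptor, was 1.78-fold higher and VWF 1.32-fold higher. The VWF call was lost with DESeq2 (adjusted p = 0.179) and without untreated replicate 1 (edgeR adjusted p = 0.151). Of 9 glioma markers, VIM, NES, EGFR, PDGFRA, CD44 and OLIG2 were above 1 CPM and GFAP, S100B and SOX2 below 1 CPM, and the 9 summed to 5006 and 5057 CPM with abemaciclib and 7870 and 7278 CPM untreated. Of the 7 tested, 6 were called lower, among them CD44 (log2 fold change -1.48 ± 0.03), PDGFRA (-1.28 ± 0.05) and OLIG2 (-1.03 ± 0.19), and SOX2 was called higher from at most 12 counts in any library, a call lost with DESeq2 (adjusted p = 0.0598). Overlaps with other annotated genes were not examined for VIM, NES and EGFR. Of the other markers named with a call, CD14 and TMEM119 overlap none. CSF1R, PTPRC, KDR and OLIG2 overlap genes on the opposite strand, with the doubt given for IL6 and LIF. CD163, PECAM1, VWF, PDGFRA and SOX2 overlap genes on the same strand, and CD68 and CD44 on both. Reads of genes on the same strand may not have been told apart whatever the strand setting. CDKN2A, which this line is known to have lost, had 0 counts. The part of other cell types in the results was not tested, and in bulk samples fewer cells of a type and less RNA per cell cannot be told apart. The share of counts on mitochondrially encoded genes was 11.8% and 11.7% with abemaciclib and 4.27% and 4.66% untreated, and its part in the results was not tested beyond leaving these genes out.

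Receptors for the chemokines were nearly undetected. Over both libraries of a group, CXCR1 had 0 counts with abemaciclib and 2 counts untreated, CXCR2 had 0 with abemaciclib and 1 untreated, and CCR2 had 4 with abemaciclib and 0 untreated, while CCR6 had 0 counts in every library. A count of 3 corresponds to 0.0886 to 0.125 CPM in an abemaciclib library and 0.0917 to 0.111 CPM in an untreated one. Of the 23 chemokine receptors, 5 passed the filter, at a median log2 fold change of -0.20. Of these, 2 were called lower, 1 higher and 2 neither. Beside this list and those below stand all tested genes, of which 39.3% were called lower and 38.0% higher. CCR1, a receptor of inflammatory CC chemokines, fell to 9.89 and 9.77 CPM with abemaciclib, against 16.2 and 18.9 CPM untreated (-0.84 ± 0.10, edgeR adjusted p = 2.76e-09). CCR1 overlaps CCR3 on the opposite strand. CCRL2, an atypical receptor, had 6.23 and 5.43 CPM with abemaciclib against 3.11 and 3.70 CPM untreated and rose (0.76 ± 0.16, edgeR adjusted p = 7.69e-05).

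The receptor chains of IL6 and LIF were expressed and rose while the ligands fell. IL6ST, which encodes gp130, had 86.9 and 83.0 CPM with abemaciclib and 49.0 and 46.1 CPM untreated (log2 fold change 0.84 ± 0.04, edgeR adjusted p = 4.07e-17). IL6R, the IL6-binding chain, had 10.5 and 10.7 CPM with abemaciclib and 5.67 and 6.54 CPM untreated (0.79 ± 0.12, edgeR adjusted p = 4.23e-07). LIFR, the LIF-binding chain, had 31.8 and 31.0 CPM with abemaciclib and 18.8 and 17.7 CPM untreated (0.78 ± 0.07, edgeR adjusted p = 9.74e-12). Of the 6 tested receptors of the family, 4 were higher and 2 lower (median 0.49), and the 2 lower ones were IL27RA, a subunit of the IL27 receptor (-2.92 ± 0.18), and OSMR, the oncostatin M receptor (-0.94 ± 0.04). IL6ST, IL6R, LIFR and OSMR overlap genes on the opposite strand, with the same doubt as for IL6 and LIF. LIFR also overlaps a gene on its own strand.

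The other ligands that signal through gp130 moved both ways. Of 6 tested, 2 were called higher, 2 lower and 2 neither, at a median log2 fold change of 0.24. IL11 had 12.6 and 12.8 CPM with abemaciclib and 258 and 287 CPM untreated (-4.42 ± 0.06, edgeR adjusted p = 3.12e-20). OSM had 0.374 and 0.207 CPM with abemaciclib against 4.26 and 3.94 CPM untreated (-3.86 ± 0.31, edgeR adjusted p = 9.42e-13). CLCF1, a ligand of the CNTF receptor, rose to 75.9 and 77.7 CPM with abemaciclib, against 47.1 and 45.5 CPM untreated (0.73 ± 0.04), and overlaps annotated genes on both strands. EBI3, a subunit shared by IL27 and IL35, had 3.66 CPM in both abemaciclib libraries and 2.74 and 2.29 CPM untreated (0.55 ± 0.19, edgeR adjusted p = 0.0107), a call that DESeq2 did not make (adjusted p = 0.166) and that was lost without untreated replicate 2 (edgeR adjusted p = 0.104).

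Receptors of the IL1 family were lower throughout, at a median log2 fold change of -1.60. Of 6 tested, 6 were called lower, against 39.3% of all tested genes. With DESeq2 the count called lower was 4. IL1R1, the signalling receptor of IL1A and IL1B, had 48.9 and 51.8 CPM with abemaciclib and 62.7 and 63.5 CPM untreated (-0.32 ± 0.05, edgeR adjusted p = 2.41e-07). IL1R2, a decoy that binds IL1 without signalling, had 0.415 and 0.649 CPM with abemaciclib and 9.07 and 9.38 CPM untreated (-4.06 ± 0.20, edgeR adjusted p = 9.52e-18). IL1RAP, the accessory chain, had 6.73 and 8.21 CPM with abemaciclib and 10.8 and 9.32 CPM untreated (-0.41 ± 0.12, edgeR adjusted p = 2.78e-03), a call lost with DESeq2 (adjusted p = 0.0955) and without abemaciclib replicate 1 (edgeR adjusted p = 0.0637). SIGIRR, an inhibitory receptor (-2.49 ± 0.12), IL1RL1, the receptor of IL33 (-2.15 ± 0.32), and IL18R1 (-1.05 ± 0.31) were the others. IL1RL1 and IL18R1 overlap each other on the same strand, IL1RAP overlaps 3 genes on its own strand and IL1R1 an antisense gene, so their reads may not have been told apart either, and the IL18R1 call was lost with DESeq2 (adjusted p = 0.0974) and without untreated replicate 2 (edgeR adjusted p = 0.144).

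Other ligands and processing genes of the IL1 family were mostly higher, at a median of 0.70. Of 8 tested, 6 were called higher and 2 lower, against 38.0% and 39.3% of all tested genes. IL36B, an agonist that uses its own receptor, rose to 71.9 and 77.3 CPM with abemaciclib, against 13.1 and 14.8 CPM untreated (2.42 ± 0.06, edgeR adjusted p = 6.56e-25). IL33, a nuclear alarmin, rose to 69.7 and 70.3 CPM with abemaciclib, against 16.6 and 16.0 CPM untreated (2.10 ± 0.06, edgeR adjusted p = 5.82e-25). IL36RN, the antagonist of IL36 (1.43 ± 0.11), and CASP1, the protease that cleaves the IL1B precursor (0.75 ± 0.16), also rose. IL1RN, the IL1 receptor antagonist, chosen after its values were seen, had 126 and 122 CPM with abemaciclib and 73.7 and 82.6 CPM untreated (0.66 ± 0.04, edgeR adjusted p = 1.18e-11). The 2 called lower numbered 0 with DESeq2 and 0 to 1 with a library left out.

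Among the other chemokine ligands, 8 of 38 passed the filter and 12 had 0 counts in every library. Of the 8, 5 were called lower, 1 higher and 2 neither, at a median log2 fold change of -0.68, and the 5 lower became 3 without untreated replicate 1. CXCL14, a chemokine of epithelia, was the 1 that rose, to 43.7 and 43.8 CPM with abemaciclib, against 3.85 and 2.29 CPM untreated (3.86 ± 0.12, edgeR adjusted p = 1.76e-13). CXCL16 (-2.58 ± 0.32), CCL5, a T cell and monocyte attractant (-1.47 ± 0.17), and CCL26 (-0.74 ± 0.21) fell, with at most 6.41 CPM in any library. CXCL14, CXCL16 and CCL5 overlap genes on the opposite strand. The CCL26 call was lost with DESeq2 (adjusted p = 0.0794) and without untreated replicate 1 (edgeR adjusted p = 0.0586).

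Of 16 tested other cytokines, 10 were called lower, 2 higher and 4 neither, at a median of -1.73. Over all tested genes, 39.3% were called lower and 38.0% higher. CSF3, the granulocyte colony-stimulating factor, had 313 and 314 CPM with abemaciclib and 1812 and 2125 CPM untreated (-2.65 ± 0.11, edgeR adjusted p = 9.33e-04). IL24 had 1.33 and 1.06 CPM with abemaciclib against 55.0 and 55.4 CPM untreated (-5.55 ± 0.10, edgeR adjusted p = 5.50e-29). IL34, a ligand of the CSF1 receptor (-3.63 ± 0.18), and IL23A (-2.82 ± 0.32) also fell. The 2 called higher, named after their values were seen, were CSF1 and TNFSF13B, a B cell survival factor that overlaps annotated genes on both strands (0.59 ± 0.15). CSF1, the other ligand of the CSF1 receptor, had 737 and 719 CPM with abemaciclib and 153 and 157 CPM untreated, 4.69-fold higher (edgeR adjusted p = 5.12e-32).

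Genes of NF-kB signalling split, at a median log2 fold change of -0.23. Of 26 tested, 14 were called lower, 8 higher and 4 neither, against 39.3% lower and 38.0% higher of all tested genes. With DESeq2 the higher ones numbered 5. NFKBIA, the inhibitor that holds NF-kB in the cytoplasm, had 140.3 and 133 CPM with abemaciclib and 344 and 354 CPM untreated (-1.35 ± 0.03, edgeR adjusted p = 7.49e-26). BCL3 (-1.92 ± 0.05), NFKBIE (-1.40 ± 0.11) and NFKBIZ (-1.39 ± 0.05), which encode further IkB-type proteins, fell as well. These 4 had the largest changes among called genes of at least 1 CPM. NFKBIB, which encodes another IkB protein, rose instead and was chosen after its values were seen. It had 33.8 and 30.6 CPM with abemaciclib and 13.9 and 14.1 CPM untreated (1.20 ± 0.07, edgeR adjusted p = 2.39e-15). TNFAIP3, which encodes the NF-kB inhibitor A20 and was chosen after its values were seen, rose to 73.3 and 74.9 CPM with abemaciclib, against 53.0 and 59.7 CPM untreated (0.39 ± 0.05, edgeR adjusted p = 4.21e-08). TNFAIP3 overlaps a gene on the opposite strand and BCL3 one on its own strand. The genes of the NF-kB subunits were also named after their values were seen. RELA (-1.09 ± 0.04), RELB (-1.02 ± 0.05), NFKB2 (-1.26 ± 0.04) and NFKB1 (-0.23 ± 0.05) were called lower. REL was called higher (0.62 ± 0.24). For NFKBIB and the subunits, neither overlaps nor the alternatives for each gene were examined.

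Factors that act on AU-rich or stem-loop elements of cytokine transcripts were also mostly lower, at a median of -0.65. Of 11 tested, 7 were called lower, 2 higher and 2 neither, beside 39.3% lower and 38.0% higher of all tested genes. The 2 higher, named after their values were seen, were ELAVL1 (log2 fold change 0.19 ± 0.04) and RC3H1 (0.26 ± 0.09). That count fell to 1 with DESeq2, and it also moved when abemaciclib replicate 2 or untreated replicate 2 was left out. ZFP36, which encodes tristetraprolin, had 20.2 and 20.3 CPM with abemaciclib and 95.0 and 90.6 CPM untreated (-2.19 ± 0.05, edgeR adjusted p = 1.24e-26). ZC3H12A, the endonuclease Regnase-1 (-1.14 ± 0.04), ZFP36L2 (-0.98 ± 0.05) and ZFP36L1 (-0.73 ± 0.03) fell too. ZC3H12A overlaps a gene on its own strand, and overlaps of ELAVL1 and RC3H1 were not examined.

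**Figure D5:**
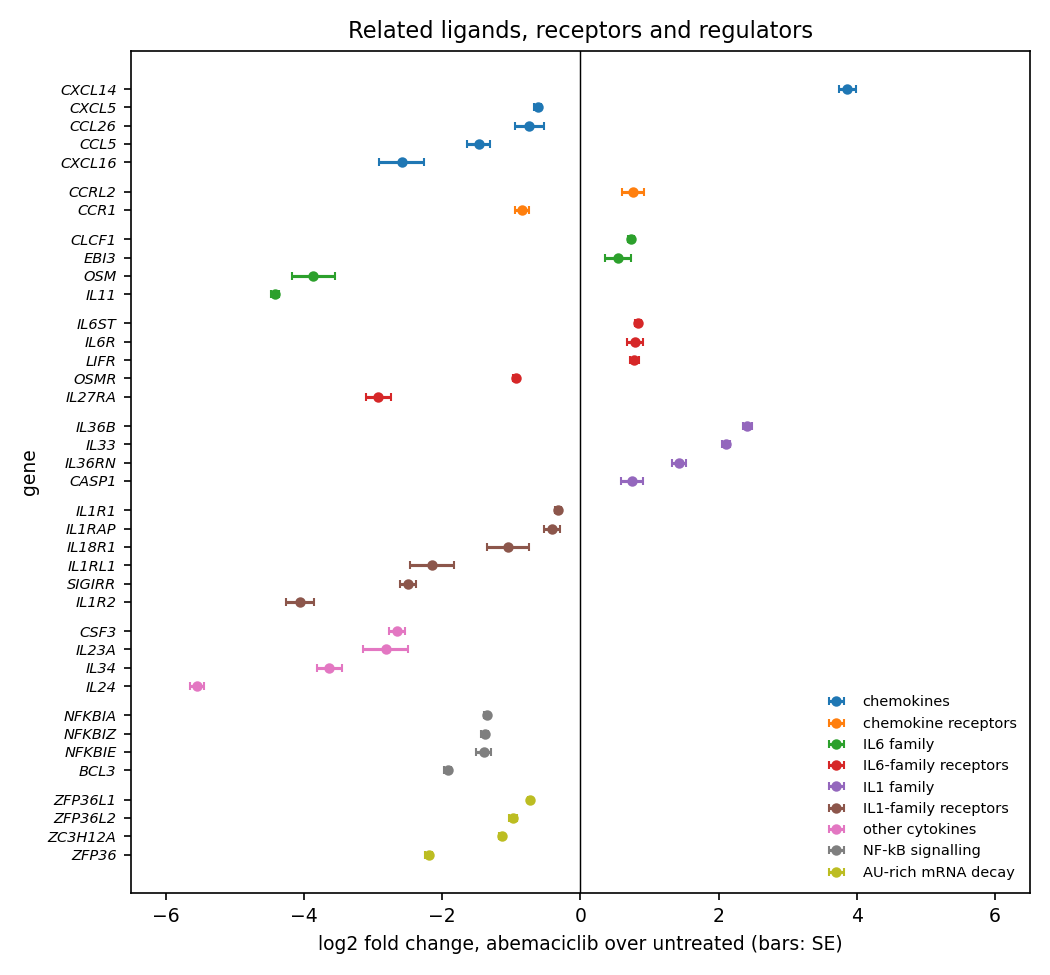
Log2 fold change, abemaciclib over untreated, with SE bars, for tested genes of the related lists, coloured by list. Shown are genes named for the largest change or whatever their values. Genes named after their values were seen are left out. IL6ST, IL6R and LIFR lie to the right of 0, the 6 receptors of the IL1 family to the left, and CXCL14 is the furthest right at 3.86.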

How the data were processed

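Messenger RNA was measured in 4 poly-A libraries made from Trizol-isolated RNA with a stranded mRNA kit, per the labels' protocols. The authors deposited 1 file of expected counts per library, estimates of reads per gene that need not be whole and are not scaled for depth or length. STAR 2.7.2b, RSEM 1.3.1 and the build GRCh38 appear in the submitters' processing notes, and the annotation release, trimming and strand setting are not given in the sources used here. Between 6.13% and 6.70% of the values were not whole, and all were rounded before the tests.

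Genes were tested with edgeR 4.0.16 (R 4.3.3) by filterByExpr, TMM scaling and the robust quasi-likelihood F test on group alone, two-sided, with 2 residual degrees of freedom per gene. The SE is the log2 fold change divided by the square root of F. Alternatives were RLE or library-size scaling, leaving out mitochondrially encoded genes, no filter, DESeq2 1.42.0, a replicate block, leaving out each library, and summing CXCL1, CXCL2 and CXCL3. The test was tried on simulated counts first. Replicates differed by more than counting error (chi-square over its degrees of freedom 1.95 for abemaciclib and 3.56 for untreated). Each library was counted as 1 sample, though this spread may be technical and does not show separate cultures. Groups came from the sample titles. Positions and transcript lengths came from GENCODE release 29, matched by identifier (96.4%), and coding identity from global alignment (Biopython 1.88). The 10 genes and the related lists were chosen with earlier results of these data known, and the motif letters after the promoters had been read. From each list the text names up to 4 called genes of at least 1 CPM with the largest change, plus the receptors of the 10 genes and CXCL5, CXCL6 and PPBP whatever their values. A gene of the NF-kB list was not analysed here.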

Additional observations from a re-analysis of the deposited data

How the results depend on the processing

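The 10 genes kept their direction under every alternative run. The number called lower, 8 with edgeR as reported, was 9 with DESeq2, with RLE size factors and without mitochondrially encoded genes, 8 with library-size scaling and with no low-count filter, and 7 to 9 with 1 library left out, and CCL2 was called higher in each. IL1B and CXCL2 account for these differences. The 2 pairs of libraries share only a replicate number (correlation of deviations 0.0344), and with a replicate block 8 were called lower and 1 higher. Counts of related lists that moved by over 1.5 times were as follows, and the cause was not tested. With DESeq2, 2 other chemokine ligands were higher (1 as reported), 1 other IL6-family ligand was higher (2) and 0 other IL1-family and processing genes were lower (2). DESeq2 also called 5 NF-kB genes higher (8) and 1 factor of AU-rich or stem-loop elements higher (2). With no low-count filter, 4 other chemokine ligands and 2 chemokine receptors were higher (1 each as reported). Scaling by library size left 1 other IL1-family gene lower. With 1 library left out, 3 to 6 other chemokine ligands were lower and 1 to 2 chemokine receptors higher. In those runs 0 to 1 other IL1-family genes were lower, and 1 to 2 factors of AU-rich or stem-loop elements were higher. A library left out leaves 1 sample in a group, which is assumed to vary like the other group. Receptors at 0 to 4 counts could not be compared at this depth.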
